A study of Mus musculus with 6 samples.

Results

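The hedgehog pathway genes described here are 9 of the 36727 genes in the table, taken by name: the ligands Ihh and Dhh, the receptor Ptch1, the signal transducer Smo, the inhibitors Sufu and Hhip, and the transcription factors Gli1, Gli2 and Gli3. All 9 were found and all 9 passed the filter on low counts. They were measured by RNA sequencing of polyadenylated RNA from tissue labelled ovary of female Swiss albino mice, staged by estrous phase according to the labels, inbred to the F4 generation and 135 to 140 days old. The 6 libraries fall into 3 of high litter size, titled H1, H3 and H4, and 3 of low litter size, titled L1, L2 and L5, and no allele, transgene or treatment is given for either group. The labels do not say whether each library is a separate animal, so every p-value rests on the variation among 6 libraries that may be technical in part.

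Hedgehog ligands are secreted proteins that bind the receptor Ptch1. Without ligand, Ptch1 holds Smo inactive. With ligand, Smo is released, Sufu lets go of the Gli factors, and the Gli factors switch on target genes, among them Ptch1, Hhip and Gli1 themselves, so that the targets also serve as a readout of the pathway. In the ovary, granulosa cells of growing follicles are known to make Ihh and Dhh, and theca and stromal cells around the follicle are known to respond. In the uterus, epithelial Ihh is a target of progesterone and signals to the stroma, Dhh is also made by Schwann cells, and stromal fibroblasts and smooth muscle precursors of many organs respond.

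Total counts ran from 17620903 to 24758222 per library, and 3 counts, taken as the limit that a count of 0 allows, correspond to 0.117 to 0.187 CPM. CPM, the unit of level used here, are counts scaled to a common library total after TMM, a method that evens out composition between libraries. All 6 libraries are labelled ovary, but markers of ovarian cell types differed between libraries of the same group. The summed level of 8 granulosa cell markers was 31.5, 17.8 and 430 CPM in H1, H3 and H4 and 284, 25.8 and 233 CPM in L1, L2 and L5. H1, H3 and L2 were thus low, with the FSH receptor gene Fshr at 0 in H1 and H3 and Amh at 0 in L2. The summed level of 6 theca cell markers was 6.95, 18.9 and 10.9 CPM in H1, H3 and L2 and 706 to 6139 CPM in the other libraries. The highest sum was that of H4, where Cyp11a1 had 2681 and Hsd3b1 3261 CPM. The theca enzyme gene Cyp17a1 was at 0 in H1 and L2 and at 0.499 CPM in H3. It was also low in H4, at 1.51 CPM, against 18.8 and 21.1 CPM in L1 and L5. Over 8 oocyte markers the sum was 1.43, 3.37 and 1.97 CPM in H1, H3 and L2 and 11.8 to 54.9 CPM in the others, and 4 of the 8, the egg coat genes Zp2 and Zp3 among them, were at 0 in H1 and L2. In these 3 libraries most of these markers were thus low or at 0, against their label, but some were not. The granulosa factor Foxl2 had 21.4, 10.3 and 21.6 CPM in H1, H3 and L2, against 31.1 to 56.3 CPM in the others. The theca marker Insl3 had 1.74, 3.25 and 4.32 CPM in the same 3, against 1.11 to 3.82 CPM. Sums of 6 luteal cell markers were 221, 321 and 110 CPM in H1, H3 and L2, against 274 to 5519 CPM in the others. The sum of 9 markers of uterus and oviduct was 313 to 1508 CPM in the high and 297 to 794 CPM in the low libraries. Of these 9, Ovgp1 alone had 1380 CPM in H4 and 421 CPM in L5. H4 also had the highest sum of 8 ciliated epithelium markers, 257 CPM against 14.6 to 50.7 CPM in the others. The differences of all members, and of the other pathway genes named by rule, are therefore given with and without H1, H3 and L2. Without them 1 high library, H4 with its high Ovgp1 and ciliated epithelium values, is compared with 2 low ones. The spread is then estimated from the pair of low libraries and taken to hold for the single high one as well.

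**Figure D1:**
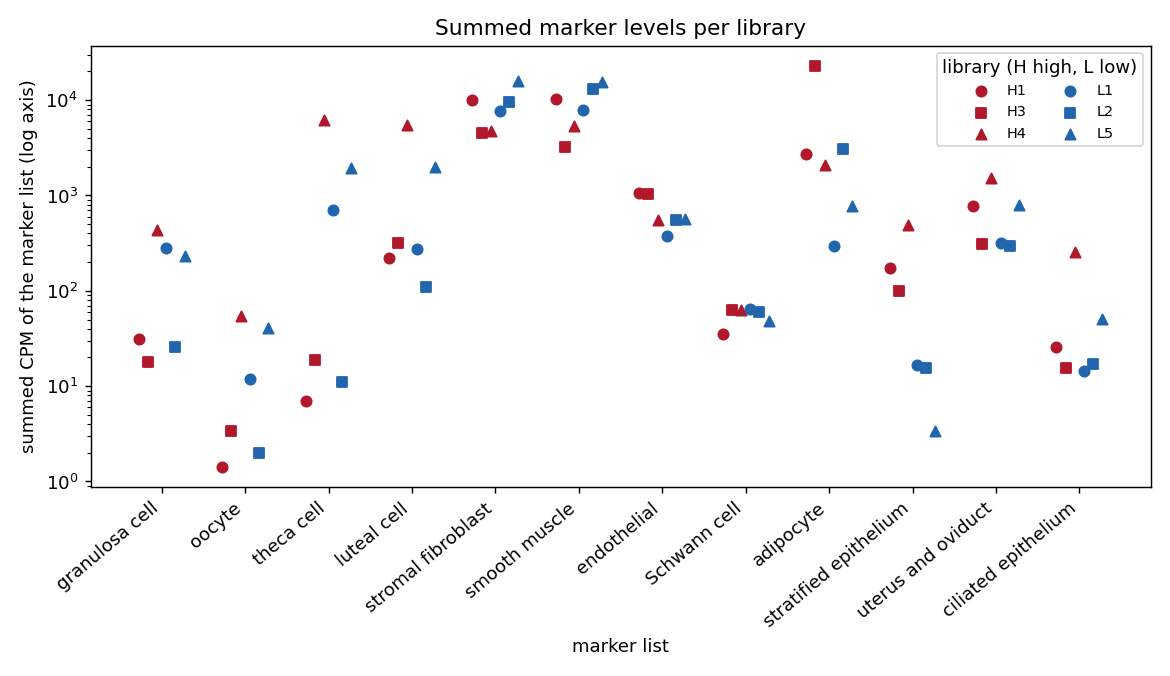
Summed CPM of 12 marker lists (log axis) in each library, red for high and blue for low litter size, 1 point per library. Granulosa, oocyte and theca cell markers are lowest in H1, H3 and L2, and stratified epithelium markers are at 100 to 490 CPM in red and 3.35 to 16.8 CPM in blue.

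The promoters of Ptch1 and Ihh are shown because Ptch1 was the member whose groups did not overlap and Ihh the ligand whose level spread most between libraries. They are the 250 bases before the RefSeq start, 5′ to 3′ on the gene's own strand, with capitals marking CpG dinucleotides.
Ptch1, chr13:63565736-63565985, minus strand, GRCm38.p6: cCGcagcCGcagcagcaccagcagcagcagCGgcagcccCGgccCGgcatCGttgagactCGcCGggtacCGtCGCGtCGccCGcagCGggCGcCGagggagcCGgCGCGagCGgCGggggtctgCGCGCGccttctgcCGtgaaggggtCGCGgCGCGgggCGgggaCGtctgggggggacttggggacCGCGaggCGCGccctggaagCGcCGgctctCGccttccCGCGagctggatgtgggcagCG
Ihh, chr1:74951673-74951922, minus strand, GRCm38.p6: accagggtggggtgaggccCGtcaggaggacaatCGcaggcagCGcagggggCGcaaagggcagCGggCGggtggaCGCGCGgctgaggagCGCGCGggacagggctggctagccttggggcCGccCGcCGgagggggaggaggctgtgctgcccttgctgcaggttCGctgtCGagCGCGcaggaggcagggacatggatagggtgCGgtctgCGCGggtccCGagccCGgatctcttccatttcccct
The printed Ptch1 sequence holds 41 CpG dinucleotides and that of Ihh 24. The Ptch1 start used lies inside the span that GENCODE gives the gene, which continues upstream. RefSeq promoters of 300 bases (250 before and 50 after the start) were found for 8 of the 9 genes, all but Gli1. Over these windows the GC content was 76.3% for Ptch1, 72.7% for Ihh, 73.7% for Hhip and 71.0% for Gli3, and the lowest was 56.3% for Sufu, against a median of 52.7% over 32851 promoters. The consensus Gli binding site, GACCACCCA or TGGGTGGTC on the other strand, was in 0 of the 8 windows and in 83 of all promoters (0.253%). Its core, CCACCCA or TGGGTGG, which lies within the full site, was in 0 of the 8 and in 9.30% of all promoters.

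Between high and low litter size, no hedgehog gene passed the test. Ptch1 was the one member for which all 3 high libraries lay above all 3 low libraries. Gli1 and Ihh had the highest fitted differences, which came mostly from H1, and Smo and Sufu varied least. By edgeR's quasi-likelihood test with Benjamini-Hochberg adjustment, 0 of 9 members were called, against 1 of 16455 genes tested (0.00608%), and without the 3 libraries low in granulosa markers it was 0 of 9 and 0 of all genes. At an unadjusted p under 0.05 it was 1 of 9, Ptch1, against 14.4% of all genes. DESeq2 on the same counts called 1 of 9, again Ptch1, against 6.56% of the genes to which it gave an adjusted p. Of all genes, 8.75% had every high library above every low library and 10.8% had every high library below. The 9 log2 fold changes, 7 positive and 2 negative, had a median of 0.38, beside 0.068 for all genes tested, of which 55.3% were positive. In bulk tissue, fewer cells of a type and less RNA per cell cannot be told apart.

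**Figure D2:**
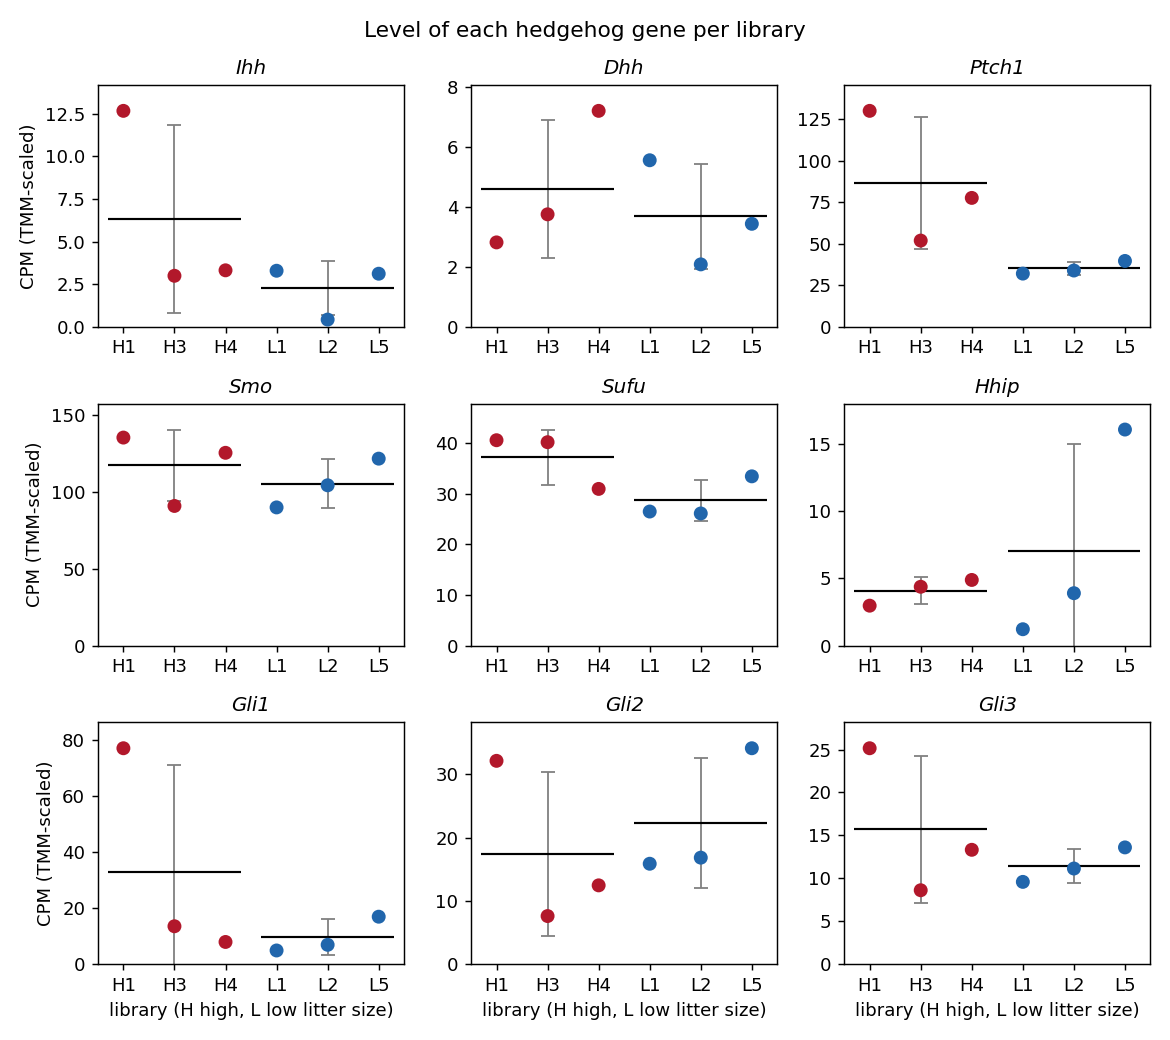
CPM of each of the 9 genes (vertical axis, from 0) in the 6 libraries (H high, red, and L low litter size, blue, with replicate number). Horizontal lines are group means and bars 1 SD (n = 3), cut at 0 where they would go below. Only for Ptch1 do the red and blue points not overlap, and H1 is the top point for 6 of the 9 genes.

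Ihh, Indian hedgehog (ENSMUSG00000006538, chromosome 1, 74945315 to 74951672, GRCm38, GENCODE M21), is the ligand of granulosa cells and of uterine epithelium. It had 248, 48 and 66 counts in H1, H3 and H4 and 57, 8 and 80 counts in L1, L2 and L5. As levels these were 12.7, 2.997 and 3.32 CPM and 3.29, 0.427 and 3.12 CPM. H1 stood 3.82-fold above the next library and L2 was lowest, while the other 4 libraries lay close together across both groups. The group levels were 6.33 ± 5.50 CPM and 2.28 ± 1.61 CPM (SD, n = 3), with a log2 fold change of 1.47 (SE 0.89, edgeR adjusted p = 0.503). The difference was 0.45 without H1, 0.98 without L2, and 0.019 without the 3 libraries low in granulosa markers. H1, highest for Ihh, had a granulosa marker sum of 31.5 CPM, with Foxl2 at 21.4 CPM and Fshr at 0. Its sum over the 9 uterus and oviduct markers, 773 CPM, was below those of H4 (1508 CPM) and L5 (794 CPM). A single gene of the list, Ovgp1, made up 1380 CPM of the sum in H4 and 421 CPM in L5, but 13.8 CPM in H1. Within that list H1 was highest for 5 genes, among them the homeobox genes Hoxa10 (293 CPM, against 29.8 to 98.3 CPM in the others) and Hoxa11 (205 CPM, against 14.2 to 62.2 CPM), but not for Pax8, Emx2, Wnt7a or Ovgp1. The part of these cell types in the Ihh values was not tested.

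Dhh, desert hedgehog (ENSMUSG00000023000, chromosome 15, 98891152 to 98898540), is the ligand of granulosa cells, Sertoli cells and Schwann cells. Its levels were 2.81, 3.75 and 7.19 CPM in H1, H3 and H4 and 5.55, 2.08 and 3.43 CPM in L1, L2 and L5. The groups overlapped, and the highest values were in H4 and L1. H4 and L1 also had the highest granulosa marker sums, 430 and 284 CPM, of which Inha was 199 and 182 CPM. In L5 the sum was 233 CPM, with Inha at 110 CPM. Dhh in L5 was below that in H3, the library of lowest granulosa marker sum. The part of granulosa cells in the Dhh values was not tested. The group levels were 4.58 ± 2.31 CPM and 3.68 ± 1.75 CPM (SD, n = 3), with a log2 fold change of 0.32 (SE 0.54, edgeR adjusted p = 0.826), which turned to -0.20 without H4 and was 0.65 without the 3 libraries low in granulosa markers. The summed level of 8 Schwann cell markers was 35.5 to 63.4 CPM in the high and 47.7 to 64.6 CPM in the low libraries, with the neural crest factor Foxd3 at 0 in L1 and L5. Dhh and Ihh did not follow each other: H1, the top library for Ihh, was the second lowest for Dhh. Both ligands were lowest in L2.

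The third mammalian ligand gene, Shh, is not one of the 9. It had 0, 69 and 9 counts in H1, H3 and H4 and 2, 4 and 1 counts in L1, L2 and L5, too few to pass the filter. H3 held most of these reads, at 4.31 CPM, and in H1 the count of 0 allows a level of up to 0.153 CPM. H3 was also the highest library in adipocyte markers, at 22839 CPM summed over 8 genes against 292 to 3038 CPM in the others. Whether the Shh reads go with that tissue was not tested.

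Ptch1 (ENSMUSG00000021466, chromosome 13, 63508328 to 63573598) encodes the ligand receptor and is itself a pathway target. It had 2544, 832 and 1544 counts in H1, H3 and H4 and 555, 636 and 1018 counts in L1, L2 and L5. As levels these were 130, 51.9 and 77.6 CPM and 32.1, 33.9 and 39.7 CPM. All high libraries lay above all low libraries, and the high libraries spread far more widely. The group levels were 86.5 ± 39.8 CPM and 35.2 ± 3.97 CPM (SD, n = 3), with a log2 fold change of 1.30 (SE 0.35, unadjusted p = 0.00796, edgeR adjusted p = 0.217). It passed with DESeq2 (log2 fold change 1.30, DESeq2 adjusted p = 0.0242) and did not pass in any of the 6 fits that left out 1 library, where it was 0.87 to 1.56. Without the 3 libraries low in granulosa markers it was 1.08 (edgeR adjusted p = 0.481). Of the 12 marker lists, the sum of 6 stratified epithelium markers also lay apart in this direction. It was 100 to 490 CPM in the high and 3.35 to 16.8 CPM in the low libraries, with none of the markers at 0. Groups lay apart for 4 of the 6 and overlapped for Krt14 and Dsg3. Endothelial marker sums (548 to 1073 and 380 to 571 CPM) overlapped through H4 and L5, and all 8 endothelial markers had positive differences, with a median of 0.90 and 3 of them (Cdh5, Esam and Tek) with groups apart. All 8 adipocyte markers were positive too, with a median of 2.55 and 3 with groups apart, and their sums were 2093 to 22839 and 292 to 3038 CPM. Of all genes tested, 55.3% were positive and 8.75% had every high library above every low library. Stromal fibroblast and smooth muscle markers went the other way. Of 8 stromal fibroblast markers 7 were negative, with a median of -0.61, and all 8 smooth muscle markers were negative, with a median of -0.90. The part of epithelial, endothelial, adipocyte, stromal and smooth muscle cells in the Ptch1 values was not tested.

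Smo (ENSMUSG00000001761, chromosome 6, 29735503 to 29761365), the membrane protein that Ptch1 holds in check, was the steadiest member. Its levels were 135, 90.7 and 125 CPM in H1, H3 and H4 and 89.8, 104 and 121 CPM in L1, L2 and L5, a 1.51-fold range over all libraries. The groups overlapped, with group levels of 117 ± 23.3 CPM and 105 ± 15.9 CPM (SD, n = 3) and a log2 fold change of 0.15 (SE 0.23, edgeR adjusted p = 0.799), or 0.21 without the 3 libraries low in granulosa markers.

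Sufu (ENSMUSG00000025231, chromosome 19, 46396896 to 46488804) binds Gli proteins and keeps them inactive. Its levels were 40.5, 40.1 and 30.9 CPM in H1, H3 and H4 and 26.5, 26.1 and 33.4 CPM in L1, L2 and L5. The groups overlapped through L5, which exceeded H4. The group levels were 37.2 ± 5.44 CPM and 28.6 ± 4.13 CPM (SD, n = 3), with a log2 fold change of 0.38 (SE 0.21, edgeR adjusted p = 0.46). Without the 3 libraries low in granulosa markers it was 0.015.

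Hhip (ENSMUSG00000064325, chromosome 8, 79965851 to 80058006) encodes a membrane protein that traps hedgehog ligands and is also a pathway target. It had 58, 70 and 97 counts in H1, H3 and H4 and 21, 73 and 412 counts in L1, L2 and L5, or 2.96, 4.37 and 4.88 CPM and 1.21, 3.89 and 16.1 CPM. The low group held both the highest and the lowest library. The group levels were 4.07 ± 0.991 CPM and 7.05 ± 7.91 CPM (SD, n = 3), with a log2 fold change of -0.80 (SE 0.86, edgeR adjusted p = 0.717). Without L5 the value turned to 0.67, and without the 3 libraries low in granulosa markers it was -0.86. L5 was also the highest library in smooth muscle markers (15589 CPM summed, against 3199 to 13098 CPM) and stromal fibroblast markers (15971 CPM, against 4493 to 10082 CPM), and their part in the Hhip value was not tested.

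Gli1 (ENSMUSG00000025407, chromosome 10, 127329882 to 127341974), an activator that is transcribed when the pathway is on, had the highest positive difference of the 9. It had 1507, 217 and 158 counts in H1, H3 and H4 and 85, 130 and 435 counts in L1, L2 and L5. As levels these were 77.0, 13.5 and 7.94 CPM and 4.91, 6.93 and 17.0 CPM. H1 stood 4.54-fold above the next library, which was L5, and the other 5 libraries overlapped between groups. The group levels were 32.8 ± 38.4 CPM and 9.60 ± 6.45 CPM (SD, n = 3), with a log2 fold change of 1.77 (SE 0.93, edgeR adjusted p = 0.437). Without H1 the difference was 0.13, without L5 it was 2.47, and without the 3 libraries low in granulosa markers it was -0.50. The marker values of H1 given with Ihh are those of granulosa cells and of uterus and oviduct. Stromal fibroblast marker sums were highest in L5 (15971 CPM) and H1 (10082 CPM), with L2 next at 9660 CPM. Smooth muscle marker sums were highest in L5 (15589 CPM) and L2 (13098 CPM), with H1 next at 10321 CPM. The part of these cell types in the Gli1 values was not tested.

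Gli2 (ENSMUSG00000048402, chromosome 1, 118834132 to 119053619) is the main activator at the start of a response. Its levels were 32.1, 7.62 and 12.5 CPM in H1, H3 and H4 and 15.9, 16.8 and 34.1 CPM in L1, L2 and L5. H1 and L5 were both well above every other library, so the groups overlapped. Group means were 17.4 ± 13.0 CPM and 22.3 ± 10.3 CPM (SD, n = 3). The log2 fold change was -0.36 (SE 0.58, edgeR adjusted p = 0.817). It was -1.16 without H1, -1.04 without the 3 libraries low in granulosa markers and 0.090 without L5. Stromal fibroblast and smooth muscle marker sums are those given with Gli1, and their part in the Gli2 values was not tested.

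Gli3 (ENSMUSG00000021318, chromosome 13, 15463235 to 15730026) is processed to a repressor in the absence of ligand. Its levels were 25.1, 8.62 and 13.3 CPM in H1, H3 and H4 and 9.59, 11.1 and 13.6 CPM in L1, L2 and L5. H1 was again the top library and H3 the lowest. Group means were 15.7 ± 8.52 CPM and 11.4 ± 2.02 CPM (SD, n = 3). The log2 fold change was 0.46 (SE 0.42, edgeR adjusted p = 0.665), and it turned to -0.068 without H1. Leaving out the 3 libraries low in granulosa markers gave 0.17.

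Across libraries, H1 was highest for 6 members (Ihh, Ptch1, Smo, Sufu, Gli1 and Gli3), L5 for Gli2 and Hhip, and H4 for Dhh. L1 was lowest for 4 members, L2 for 3 and H3 for 2. The pattern of H1 was not shared by all targets: Gli1 was 2.56 and Ptch1 1.29 above its own mean over the 6 libraries (log2 CPM), whereas Hhip was -0.47. In L5, Hhip was 1.93 and Gli1 0.38 above their means, whereas Ptch1 was -0.42.

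**Figure D3:**
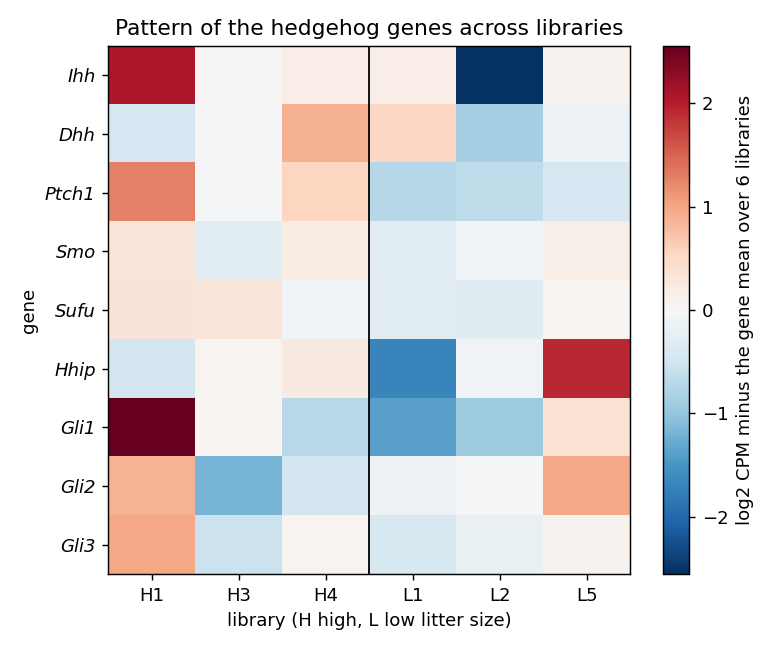
Log2 CPM of each gene minus its mean over the 6 libraries (colour), by gene and library, high litter size left of the line and low right of it. Ihh, Ptch1, Gli1, Gli2 and Gli3 are all above their means in H1, Hhip is highest in L5, and Ihh is at -2.52 in L2.

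Divided by merged exon length, Smo had the highest level, 19.8 ± 3.38 CPM per kb (SD over the 6 libraries), and each library's Smo value exceeded its value for any other member. Ptch1 (4.29 ± 2.67), Sufu (4.28 ± 0.828) and Gli1 (4.25 ± 5.55 CPM per kb) followed, with means that did not differ beyond their spread. Within libraries, Ptch1 exceeded Sufu in only 2 of 6, and Sufu exceeded Gli1 in 5 of 6. The place of Gli1 rested on H1: in the low group the levels were 3.72 for Sufu, 3.25 for Gli2, 2.48 for Ptch1 and 1.92 CPM per kb for Gli1, and Gli1 exceeded Gli2 in 2 of 6 libraries. Gli2 had 2.89 ± 1.57, Gli3 1.42 ± 0.626 and Ihh 1.41 ± 1.39 CPM per kb. Their ranges overlapped, but Gli2 exceeded Gli3, and also Ihh, in each of the 6 libraries. Dhh had 0.940 ± 0.431 and Hhip 0.613 ± 0.584 CPM per kb, so the ligands and the ligand trap were at the lower end. In H1 alone Gli1 reached 15.4 CPM per kb, second to Smo at 24.0. In L5 Hhip, at 1.77, was above Ihh, at 1.02 CPM per kb. With the longest annotated transcript as the length, Ptch1 and Sufu changed places, and so did Gli3 and Ihh.

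The other pathway genes came from 4 lists with 49 genes, of which 46 were tested. None passed with edgeR, 6 were higher and 3 lower at an unadjusted p under 0.05, beside 14.4% of all genes in both directions, and DESeq2 called 6, beside 6.56%. The list of other receptors and co-receptors had the highest median log2 fold change, 0.98 over 7 genes, 6 of them positive, beside 0.068 for all genes tested. In 4 of its 7 genes every high library was above every low library, as in 8.75% of all genes. Boc, a ligand-binding co-receptor, had 51.9, 68.5 and 35.7 CPM in H1, H3 and H4 against 23.9, 29.1 and 26.1 CPM in L1, L2 and L5 (log2 fold change 0.98, SE 0.27, edgeR adjusted p = 0.225, DESeq2 adjusted p = 0.0381), or 0.48 without the 3 libraries low in granulosa markers. Gpc3, a glypican that competes with Ptch1 for ligand, had 77.9, 45.9 and 39.7 CPM against 13.9, 17.8 and 28.9 CPM (log2 fold change 1.43, SE 0.38, edgeR adjusted p = 0.215, DESeq2 adjusted p = 0.0189), or 0.86 without the 3 libraries. The glypican Gpc6 had 34.3, 12.1 and 8.09 CPM against 3.93, 5.97 and 5.85 CPM (log2 fold change 1.79, SE 0.58, edgeR adjusted p = 0.275, DESeq2 adjusted p = 0.0443), or 0.92 without H1 and 0.69 without the 3 libraries. Groups lay apart for these 3 genes and for the co-receptor Cdon, at 0.52. Cdon, Lrp2 and Gas1 are named here after their values were seen. Lrp2, an endocytic receptor that can bind hedgehog ligands, had 165 CPM in H1, 23.3 and 9.85 CPM in the other H libraries and 3.57 to 14.7 CPM in the low libraries. Its groups thus overlapped, and its log2 fold change of 3.16 was as low as 1.13 over the fits that left out 1 library. The co-receptor Gas1 had the one negative value of the list, -0.33.

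**Figure D4:**
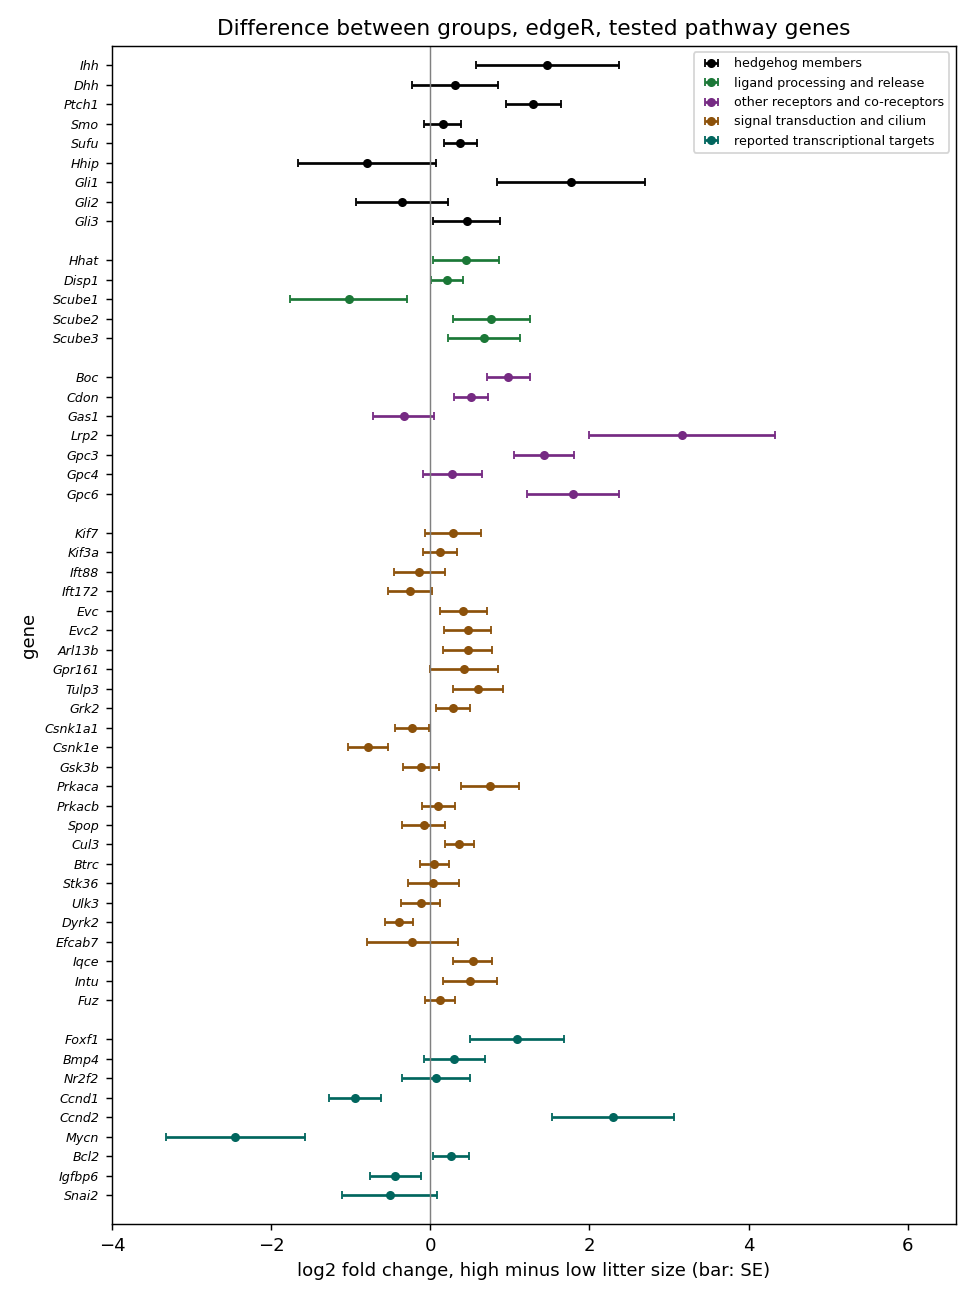
Log2 fold change of high minus low litter size with its SE (horizontal axis) for the 9 hedgehog members and the 46 other tested pathway genes, coloured by list. The receptors and co-receptors (purple) lie mostly right of 0, at up to 3.16 for Lrp2, and the signal transduction genes (brown) between -0.78 and 0.75.

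Genes of ligand processing and release numbered 6, of which 5 were tested. Their median log2 fold change was 0.45, and 4 of 5 were positive. Scube2 and Scube3, secreted proteins that help release ligand, had 0.76 (SE 0.48) and 0.68 (SE 0.46), or 0.86 and 0.73 without the 3 libraries. Scube1, of the same family, had -1.03 (SE 0.73), -1.77 without H1, -2.63 without the 3 libraries low in granulosa markers, and -0.12 without L5, where its level was 106 CPM against 12.1 to 48.0 CPM in the other libraries. The smallest adjusted p of the list was 0.516 by edgeR. Of the 25 genes of signal transduction and the cilium, where the pathway operates, 16 were positive and 9 negative, with a median of 0.12. The kinase gene Csnk1e had the smallest p of this list, with 62.4, 50.3 and 47.2 CPM in the high and 103, 107 and 64.7 CPM in the low libraries (log2 fold change -0.78, SE 0.25, edgeR adjusted p = 0.276). Groups did not overlap for 5 genes of the list, 2 higher and 3 lower, a share near that over all genes (8.75% higher and 10.8% lower). Among them were Csnk1e, Dyrk2, a kinase, at -0.40, and Iqce, a protein of the cilium base, at 0.53. Without the 3 libraries low in granulosa markers these were -0.86, -0.30 and 0.22.

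Of 11 reported targets other than the members, 9 were tested, 5 with positive and 4 with negative values, and the median was 0.074. The forkhead genes Foxf2 and Foxl1 were too low to test. Ccnd2, a cyclin, had 154, 726 and 112 CPM in the high and 40.1, 79.4 and 82.2 CPM in the low libraries (log2 fold change 2.30, SE 0.77, edgeR adjusted p = 0.288, DESeq2 adjusted p = 0.0277), and its value was 0.98 without H3. The related cyclin gene Ccnd1 went the other way, with 104, 51.9 and 66.4 CPM against 117, 127 and 184 CPM (log2 fold change -0.95, SE 0.32, edgeR adjusted p = 0.296). Mycn, a growth-promoting transcription factor, had 1.28, 5.93 and 17.6 CPM against 51.7, 60.4 and 24.0 CPM (log2 fold change -2.45, SE 0.88, edgeR adjusted p = 0.307, DESeq2 adjusted p = 0.049). In H1, where Gli1 and Ptch1 were highest, Mycn was at its lowest. Mycn was -1.13, Ccnd1 -1.21 and Ccnd2 0.84 without the 3 libraries low in granulosa markers, and Mycn was -3.70 without H4.

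The genes of most similar pattern were taken by the root mean square difference of log2 CPM, centred per gene, over the 6 libraries, among 14714 other genes. This is a description with no test. For Ptch1 these were Nkain4 (0.112), Lrrn4 (0.122) and Arhgef26 (0.132), and the nearest hedgehog member was Gli3 (0.444, rank 313). By nearness to Ptch1, Gli1 ranked 7914 and Ihh 10034. The values were not scaled for how widely each gene varied, so these ranks depend on the size of the swings as well as their direction. A far rank therefore does not mean that genes rose and fell in different libraries. Ptch1 and Gli1 were both highest in H1 and lowest in L1, and Ihh was also highest in H1. For Gli1 they were Hif3a (0.253), Prf1 (0.359) and Vit (0.380). Lrp2 (0.694, rank 66) was nearer to Gli1 than any member, of which Ptch1 was nearest (0.848, rank 226). For Ihh they were Col9a2 (0.471), Olfr1388 (0.486) and Kcng4 (0.490), and the nearest member was Ptch1 (0.941, rank 150). Col9a2, picked for its likeness to Ihh, had its highest level in H1, at 7.51 CPM, and its lowest in L2, at 0.267 CPM. Olfr1388 and Kcng4, picked in the same way, also had their highest level in H1 and their lowest in L2.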

How the data were processed

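RNA from 6 samples labelled ovary, 3 of high and 3 of low litter size, was compared, with groups from the labels and replicate numbers from the titles (H1, H3, H4, L1, L2 and L5). The deposited values are estimated counts per gene. The authors' tools were Trim Galore, kallisto and DESeq2 with GRCm38, per the submitters' processing notes, which give no versions. That these whole numbers are rounded kallisto estimates is an assumption. kallisto divides reads between similar transcripts, so values of close paralogs are less certain. Symbols, positions and exon lengths are from GENCODE M21 (GRCm38) and covered 35869 of 36727 genes. All 148 listed genes were found, and 1 further gene considered for the lists is not reported here.

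Genes were kept by filterByExpr (minimum count 10, minimum total 15), which left 16455. Counts were scaled by TMM and tested with edgeR 4.0.16 (quasi-likelihood F test, R 4.3.3), high minus low, with no covariate, Benjamini-Hochberg adjustment over all genes tested and a threshold of 0.05. The SE is the absolute log2 fold change divided by the root of F. The fit was tested on simulated data. Alternatives were DESeq2 1.42.0, limma 3.58.1 voom, RLE and library-size scaling, no filter, 1 CPM in 3 libraries, and each library left out. The joint removal of 3 libraries and the transcript length used for levels were chosen after seeing the data. Likeness used log2 CPM with a prior count of 2. Intervals from counts of 0 cover counting error only.

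The members and lists were chosen with earlier results of these data known. All members were named. Of each other pathway list the 3 genes of smallest p with at least 1 CPM in the higher group were named, and further genes are said to be named after their values were seen where this applies. Summaries were made in Python 3.11.15 with pandas 2.3.3 and plots with matplotlib 3.10.9.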

Additional observations from a re-analysis of the deposited data

How the results depend on the processing

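Of 117 member values under 13 other fits, 111 kept their direction and side of the threshold, 5 changed sign and 1 newly passed. Ihh, Ptch1, Smo and Sufu kept their sign in every fit run. A kept sign says little where the value was near 0. Without the 3 libraries low in granulosa markers Ihh was 0.019 and Sufu 0.015. Gli2 without H3, counted as keeping its direction, was -0.00058. The sign changes were Dhh without H4 (-0.20), Hhip without L5 (0.67), Gli2 without L5 (0.090), Gli3 without H1 (-0.068) and Gli1 without the 3 libraries low in granulosa markers (-0.50). Over the fits that left out 1 library the values ranged from -0.20 to 0.73 for Dhh, from -1.30 to 0.67 for Hhip, from -1.16 to 0.090 for Gli2 and from -0.068 to 0.75 for Gli3. Ptch1 passed with DESeq2 (1.30). The count of genes called over the whole table was 1 with edgeR, 1026 with DESeq2 (354 higher, 672 lower), 3 with limma voom and 2 with library-size scaling. It was 0 to 1 with a library left out and 0 without the 3 libraries. At an unadjusted p under 0.05 these last fits gave 1241 to 2838 and 1742 genes. Members called were 1 with DESeq2 and 0 in the other fits, and other pathway genes called were 6 with DESeq2 (Boc, Gpc3, Gpc6, Lrp2, Ccnd2 and Mycn) and 0 in the other fits. The cause of the difference between tools was not tested. None of the 156 values of the 12 other named pathway genes changed sign. Group mean levels moved by less than 1 SD under library-size scaling. Ranks per length changed with the longest transcript: Ptch1 went to 3, Sufu to 2, Gli3 to 7 and Ihh to 6. No paired analysis was possible because the labels give no pairing between high and low libraries. Precision was limited by 3 libraries a group and by counts as low as 8 for Ihh.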
